A study of Mus musculus with 54 samples.

Results

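The 10 receptor genes with which the mouse liver senses lipids and foreign compounds were described in the liver transcriptome of male C57BL/6J mice exposed to diisononyl phthalate (DINP), a plasticizer. They were the rows of the expression table whose gene symbol was Ppara, Ppard, Pparg, Rxra, Nr1h3, Nr1h4, Nr0b2, Nr1i2, Nr1i3 or Ahr, 10 of 20162 rows, and all 10 were measured in every one of the 54 livers. The mice were wild type, received a high-fat diet from the age of 8 weeks and ate a gelatin pellet with DINP daily for 20 weeks. The 14 control mice received a placebo pellet, 13 mice received 1.5 mg/kg bw/d, 13 received 15 and 14 received 150 mg/kg bw/d. All groups, the controls included, were thus male mice fed a high-fat diet, and no lean group entered the comparisons. Total RNA of the medial lobe was sequenced by a 3′ tag method, and the values are by name TPM, a per-transcript abundance. From their steps within each mouse they were read as rounded and scaled between mice, and they are called scaled TPM below.

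Most of these receptors are nuclear receptors, transcription factors that bind a small lipophilic ligand and switch on genes that handle it. PPARα (Ppara) responds to fatty acids and to peroxisome proliferators, among them phthalate monoesters, and drives fatty acid oxidation, PPARδ (Ppard) is a widely expressed relative, and PPARγ (Pparg) drives lipid storage in adipocytes and in fatty liver. RXRα (Rxra) is the partner with which PPARs, LXRα (Nr1h3, a sterol receptor), FXR (Nr1h4, the bile acid receptor), PXR (Nr1i2) and CAR (Nr1i3, both receptors of foreign compounds) bind DNA. SHP (Nr0b2) is a receptor without a DNA binding domain that FXR induces and that represses bile acid synthesis, and AHR (Ahr) is a ligand-activated factor of another protein family that responds to aromatic hydrocarbons.

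Ppara was the only one of the 10 genes called at 150 mg/kg bw/d and Rxra the only one called at 15 mg/kg bw/d, and both were higher than in control. None was called at 1.5 mg/kg bw/d. The share of all tested genes called against control was 1.20% at that dose, 14.2% at 15 and 2.17% at 150 mg/kg bw/d. Direct comparison of doses gave calls for Ppara, Rxra, Nr1i2 and Ahr in the limma fit of all mice. At 15 against 150 mg/kg bw/d, 20.0% of all tested genes were called. Of these receptors, only Rxra was still called there in the rank-sum test, where 1246 of 11431 tested genes were called. The same held without the 8 mice named below, where 953 of 11431 were called. Calls here are an adjusted p under 0.05 in limma on log2(value + 1), with Benjamini-Hochberg adjustment over 11431 genes with a mean of at least 1, all 10 receptors among them. Each dose was set against the same 14 control mice, so that the 3 comparisons with control share those samples.

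Before the results, 8 mice have to be named. On the first principal component of 6924 genes with a mean of at least 5, the receptors left out (19.4% of the variance), 8 mice stood apart from the other 46 across the widest gap: replicates 4 to 9 at 15 mg/kg bw/d, replicate 1 of the control group and replicate 10 at 150 mg/kg bw/d. The summed value of 292 ribosomal protein genes and pseudogenes was 25114 to 33721 scaled TPM in these 8 mice and 16429 to 23342 in the others. The labels give no batch, so that a technical origin cannot be told apart from a state of these livers. Values without these mice are given below beside the results that they move most. As a check of the tissue, the summed value of 10 hepatocyte markers was 23936 to 48566 scaled TPM over the mice, while 6 of the 9 lymphocyte markers in the table had a median of 0. Other cell types were largely detected. A median of 0 was found for 0 of 11 endothelial, 1 of 12 stellate cell and 2 of 14 macrophage markers. It was found for 1 of 6 cholangiocyte and 4 of 8 adipocyte markers. In such bulk RNA, fewer cells of a type and less RNA per cell cannot be told apart.

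In control livers, Ppara was the most abundant of the 10 transcripts, with a median of 134 scaled TPM (82.1 to 187). Nr0b2 (median 56.9), Nr1i3 (52.4), Nr1h4 (43.6) and Nr1h3 (41.8) followed. Ppara exceeded Nr0b2 in 12 of 14 control mice, with overlapping ranges. The others were not separated beyond their spread: Nr0b2 exceeded Nr1i3 in 10 of 14 control mice, Nr1i3 exceeded Nr1h4 in 9, and Nr1h4 exceeded Nr1h3 in 6. Rxra (25.8) lay below Nr1h3 in 14 of 14 control mice with no overlap of the ranges, and above Nr1i2 (21.9) in 11 of 14. Pparg had a median of 11.6 and lay below Nr1i2 in 14 of 14. Ahr (2.81) and Ppard (1.97) were at the bottom, where the rounded values of different mice take only a few distinct levels. TPM divides by transcript length while a 3′ tag is counted once per transcript, so that the order of genes carries that division with it.

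Over all 54 mice, the spread within groups was smallest for Nr1h3 (coefficient of variation 11.2%) and Rxra (14.1%) and largest for Pparg (50.0%). Pparg, the storage receptor, ranged from 3.09 to 27.7 scaled TPM between mice of the same diet. The low-abundance Ppard (34.4%) and Ahr (32.1%) and the FXR-induced Nr0b2 (32.0%) lay between.

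**Figure D1:**
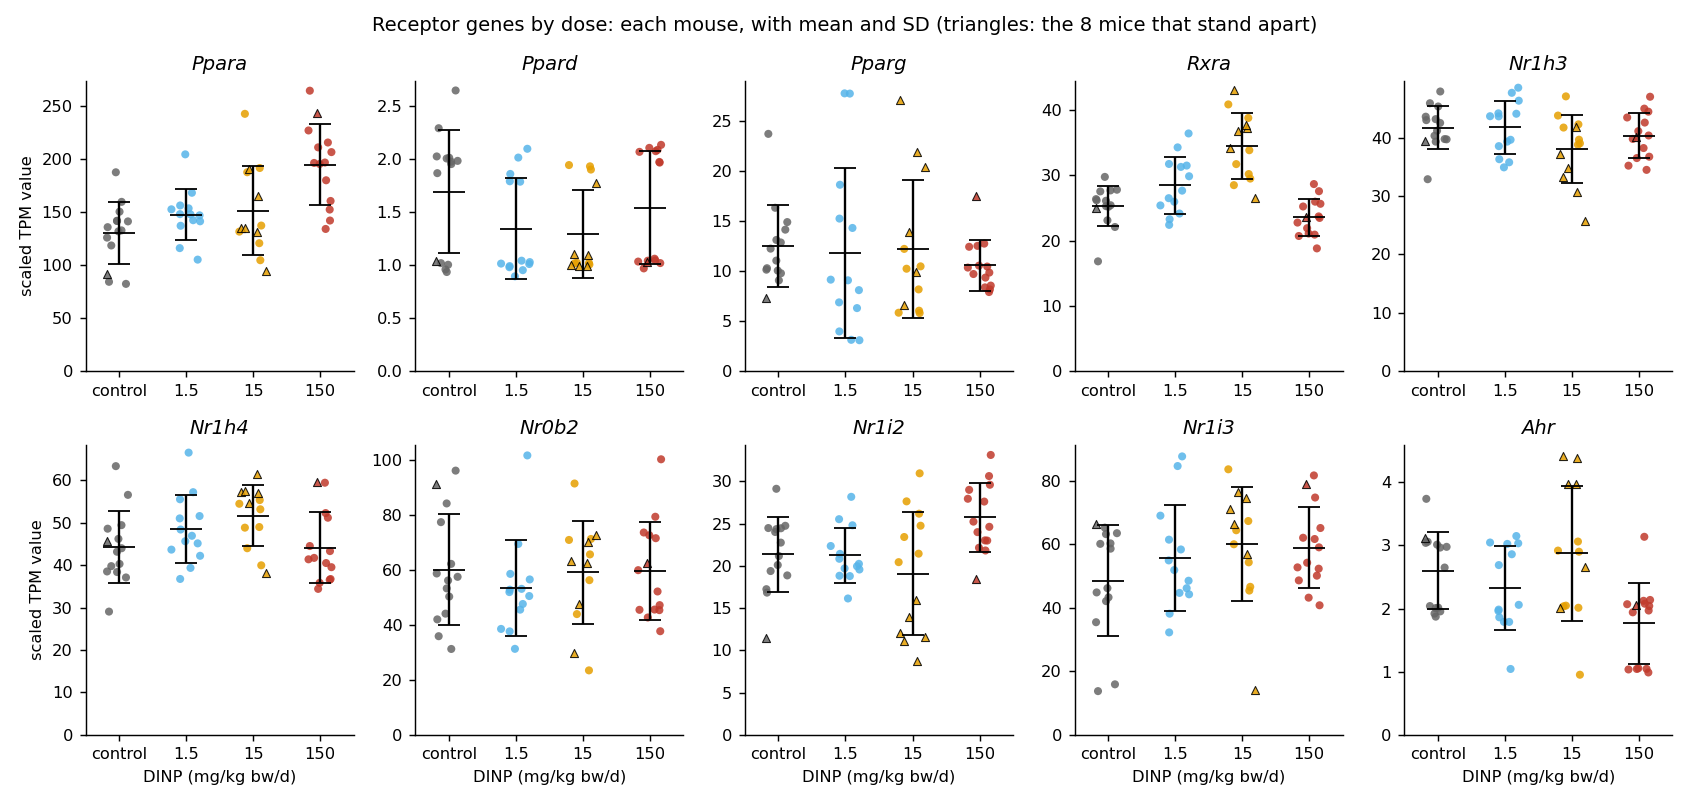
Scaled TPM (y axis, linear, from 0) of the 10 receptor genes in each mouse by DINP dose (x axis, mg/kg bw/d). Bars give the mean and SD of 14 control mice and of 13, 13 and 14 dosed mice, and triangles mark the 8 mice that stand apart; Ppara is highest at 150 mg/kg bw/d (mean 194), Rxra at 15 mg/kg bw/d (mean 34.5), and the low Nr1i2 values at 15 mg/kg bw/d are triangles.

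The genes lie on 9 chromosomes of GRCm38 (GENCODE M21), Rxra and Nr1h3 far apart on the same one: Ppara is on chromosome 15 (85734983 to 85802819, plus strand), Rxra on chromosome 2 (27676440 to 27762957, plus strand), Nr1i2 on chromosome 16 (38248323 to 38294824, minus strand) and Ahr on chromosome 12 (35497974 to 35535038, minus strand). For 9 of the 10 genes, the 3′ end, where the tags of this library type lie, overlapped no other annotated gene. The 3′ end of Nr1i3 (chromosome 1, 171213970 to 171220701, plus strand) overlapped Tomm40l on the opposite strand, and whether the counting used strand is not given in the sources used here, so that the Nr1i3 value may hold reads of that gene.

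The start regions of the receptors differed in their number of CpG dinucleotides. RefSeq windows on GRCm38.p6, from 250 bases before to 50 after a transcription start, were found for 9 of the 10 genes, all but Ahr (13 windows). In 4 of the 13, the windows of Ppara, Ppard, the first start of Pparg and the first start of Rxra, there were 27 to 55 CpG dinucleotides, while 26.5% of all 32851 windows had 20 or more. The other 9 windows, among them all those of Nr1h3, Nr1h4, Nr0b2, Nr1i2 and Nr1i3, had 1 to 13 against a median of 7 over all windows. The 4 of 13 lay near the share of all windows, and the further starts of Pparg and Rxra were among the other 9. Ppara, Ppard, Pparg and Rxra thus each had 1 of the 4, and Nr1h3, Nr1h4, Nr0b2, Nr1i2 and Nr1i3 had none.

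The bases before the start of the called genes Ppara, Rxra and Nr1i2 follow below. Capitals mark the GC box GGGCGG and the nuclear receptor half-site AGGTCA, on either strand, as well as CACGTG and TATAAA, which do not occur in these stretches; of the Ppara window only the part that follows other annotated first exons is shown.
Ppara start, chr15:85735714-85735775, plus strand: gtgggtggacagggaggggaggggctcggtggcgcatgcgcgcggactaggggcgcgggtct
Rxra first start, chr2:27676951-27677200, plus strand: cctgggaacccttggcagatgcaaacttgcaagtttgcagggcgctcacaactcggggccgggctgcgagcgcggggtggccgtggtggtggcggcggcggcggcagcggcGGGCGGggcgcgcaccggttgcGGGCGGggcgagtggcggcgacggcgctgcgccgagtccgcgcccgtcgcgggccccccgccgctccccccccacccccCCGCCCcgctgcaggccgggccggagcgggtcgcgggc
Rxra second start, chr2:27709042-27709291, plus strand: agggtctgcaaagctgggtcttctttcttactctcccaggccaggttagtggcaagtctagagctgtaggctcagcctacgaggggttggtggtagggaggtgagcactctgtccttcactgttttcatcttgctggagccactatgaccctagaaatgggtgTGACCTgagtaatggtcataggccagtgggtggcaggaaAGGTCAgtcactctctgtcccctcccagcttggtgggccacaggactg
Nr1i2 start, chr16:38294825-38295074, minus strand: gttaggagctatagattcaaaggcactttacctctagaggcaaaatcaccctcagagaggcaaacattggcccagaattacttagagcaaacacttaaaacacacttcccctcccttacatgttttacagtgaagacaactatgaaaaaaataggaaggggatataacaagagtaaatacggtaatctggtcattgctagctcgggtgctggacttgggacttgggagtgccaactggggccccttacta

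Searched on both strands over the whole 300-base windows, GGGCGG occurred in 6 of the 13 receptor windows (35.7% of all windows) and AGGTCA in 4 (16.3% of all windows). CACGTG, the E-box that clock factors bind, occurred in the windows of Nr0b2 and Nr1i3 (7.15% of all windows), and TATAAA in those of Nr0b2 and the second start of Pparg (13.6%). GCGTG, the core that the AHR dimer reads, occurred in 4 (32.4%). AGGTCA pairs spaced by 1 base (DR1, the arrangement PPAR and RXR bind) or by 4 bases (DR4, that of LXR) occurred in none, and in 0.0396% and 0.0152% of all windows. These are letter matches in a short window and say nothing of binding.

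At 150 mg/kg bw/d, Ppara rose. Its value was 82.1, 134 and 187 scaled TPM in the lowest, median and highest control mouse, and 134, 196 and 264 among mice on 150 mg/kg bw/d. Both groups overlapped, yet 9 of 14 dosed mice exceeded every control mouse and 13 of 14 exceeded the control median. The log2FC was 0.58 (SE 0.12; limma, adjusted p = 0.00187), with a 95% interval of 0.35 to 0.82. It was 1 of the 10 receptors called at this dose, where 2.17% of all tested genes were called in either direction, and also past a log2FC of 0.5, which held for 0.840% of them. Of the 10 receptors, 4 had a positive and 6 a negative log2FC, with a median of -0.03 beside -0.01 over all tested genes.

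The lower Ppara values of the intermediate doses were not distinguishable from control. The mean was 130 ± 29.1 (SD, n = 14) in control, 147 ± 23.7 (n = 13) at 1.5, 151 ± 41.6 (n = 13) at 15 and 194 ± 37.9 (n = 14) for 150 mg/kg bw/d. The 2 lower doses did not differ from control beyond their spread (log2FC 0.20 for both, limma adjusted p = 0.517 and 0.281), and their medians were 148 and 135 beside 134 in control. The control median was exceeded by 11 of 13 mice at 1.5 and 8 of 13 at 15 mg/kg bw/d, and every control mouse by 1 and 4 of them. Compared directly with 150 mg/kg bw/d, Ppara was lower at 1.5 (log2FC -0.39, SE 0.12, adjusted p = 0.048), a call that was lost in 22 of 27 fits that left out 1 mouse and without the 8 mice that stand apart (adjusted p = 0.0527), and at 15 (-0.38, SE 0.12, adjusted p = 0.0171). Without the 8 mice that stand apart, the rise at 150 mg/kg bw/d remained (log2FC 0.52, adjusted p = 0.0062), and the difference between 15 and 150 mg/kg bw/d was not called (-0.29, adjusted p = 0.223).

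The Ppara level also moved with Dbp, an output gene of the circadian clock, in mice of the same dose. The 3 control mice with the lowest Ppara, replicates 9, 8 and 1, had Dbp values of 13.2, 14.5 and 15.6 scaled TPM against a control median of 55.3. Of these, replicate 1 stands apart, and replicates 9 and 8 had the highest summed macrophage markers of all mice (572 and 560 scaled TPM). Replicate 12, with a Dbp of 20.1, had a Ppara of 150 scaled TPM, above the control median. Across the 54 mice, deviations of Ppara and Dbp from the group means had a Pearson r of 0.57 (Spearman rho 0.48, adjusted permutation p = 0.000102 and 0.00137), with r from 0.42 to 0.82 within the 4 groups and 0.53 without the 2 mice farthest from the median Ppara. With the macrophage sum, the r of Ppara was -0.73 within control and -0.07 to 0.18 within the dosed groups. With Dbp as a covariate, the call at 150 mg/kg bw/d held for Ppara (0.48, limma adjusted p = 0.00323). The part of the time of sampling in these values was not tested. Dbp was chosen after the data were seen.

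Rxra rose at 15 mg/kg bw/d. It stood at 16.8, 25.8 and 29.8 scaled TPM in the lowest, median and highest control mouse, and 26.6, 34.1 and 43.1 among mice on 15 mg/kg bw/d. Both groups overlapped, while all 13 dosed mice were above the control median and 10 above every control mouse. The log2FC was 0.43 (SE 0.08; limma, adjusted p = 8.11e-05), with a 95% interval of 0.28 to 0.59, so that it was called without passing a log2FC of 0.5. Rxra was 1 of the 10 receptors called at this dose, where 14.2% of all tested genes were called; 3 of the 10 had an unadjusted p under 0.05, as did 27.0% of all tested genes.

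Rxra did not follow the order of the doses. The mean was 25.3 ± 3.12 (SD, n = 14) in control, 28.5 ± 4.37 (n = 13) at 1.5, 34.5 ± 5.06 (n = 13) at 15 and 23.6 ± 2.80 (n = 14) at 150 mg/kg bw/d. Control and 150 mg/kg bw/d did not differ beyond their spread (log2FC -0.10, adjusted p = 0.612). Direct comparison placed 15 above 150 mg/kg bw/d (log2FC 0.53, SE 0.08, adjusted p = 1.49e-06), 1.5 below 15 (-0.27, SE 0.08, adjusted p = 0.00923) and 1.5 above 150 mg/kg bw/d (0.26, SE 0.08, adjusted p = 0.0371), of which the last was lost in 11 of 27 fits that left out 1 mouse. For the common partner receptor, the mice on 15 mg/kg bw/d thus lay above all 3 other groups in the limma fit of all mice. The difference from 1.5 mg/kg bw/d was not called in the rank-sum test (adjusted p = 0.057), nor without the mice that stand apart, as given below.

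The Rxra rise did not rest on the mice that stand apart. At 15 mg/kg bw/d, the 6 such mice had a median of 37.0 scaled TPM and the other 7 a median of 31.7 (28.5 to 40.9). Without all 8, the log2FC against control was 0.38 (adjusted p = 0.00781) and against 150 mg/kg bw/d 0.48 (adjusted p = 0.000438), and the difference between 1.5 and 15 mg/kg bw/d was not called (-0.22, adjusted p = 0.16). Markers of macrophages moved with Rxra as well: the summed value of the 14 macrophage markers was 182 to 572 scaled TPM in control and 151 to 438 at 15 mg/kg bw/d, with Gpnmb and Itgax at a median of 0. Of the 12 tested macrophage markers only Csf1r was called at this dose, and it was lower (log2FC -0.60, adjusted p = 0.0114), though not called without the mice that stand apart. Deviations of Rxra and of the macrophage sum from the group means had a Pearson r of -0.69 (Spearman rho -0.64; adjusted permutation p = 0.000102 and 0.000205, r from -0.84 to -0.58 within groups). Dbp was also higher at 15 mg/kg bw/d (47.4 to 134 scaled TPM, median 91.9) than in control, and with it as a covariate the Rxra log2FC was 0.33 (limma, adjusted p = 0.00512). The part of the cell composition in the Rxra result was not tested.

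**Figure D2:**
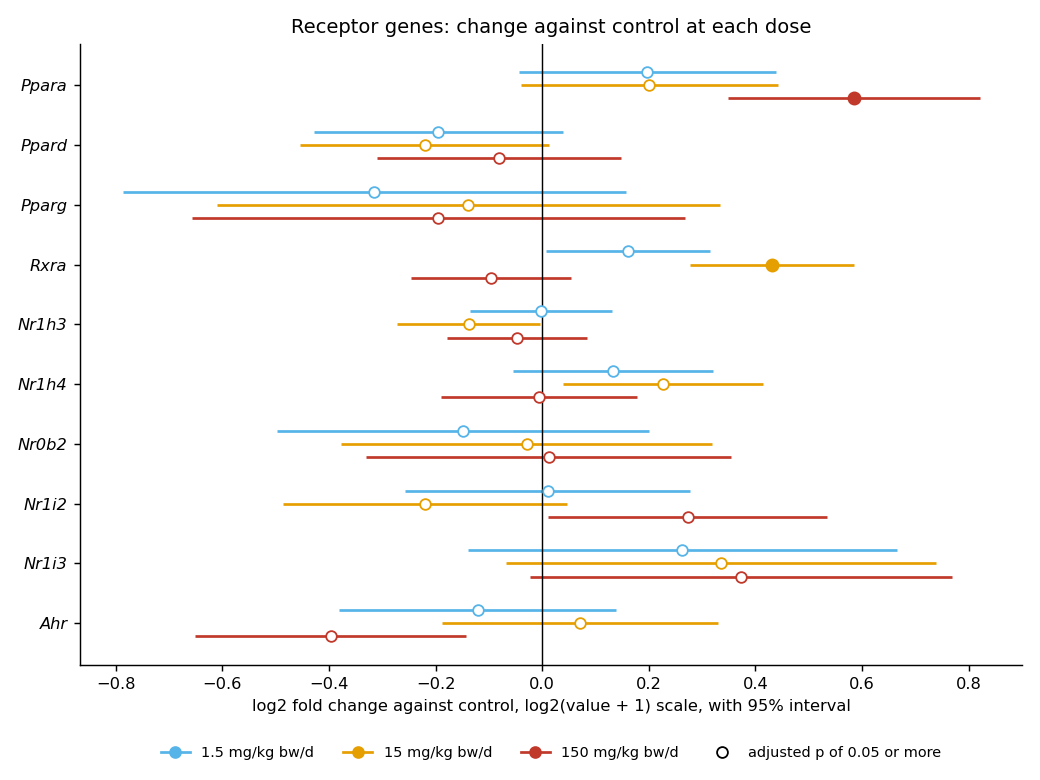
log2 fold change (x axis, on the log2(value + 1) scale) of each receptor gene (y axis) against the 14 control mice at each dose, with the 95% interval of the limma fit. Filled points have an adjusted p under 0.05: Ppara at 150 mg/kg bw/d (0.58) and Rxra at 15 mg/kg bw/d (0.43).

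The other PPAR genes were not called at any dose. Pparg was 7.27, 11.6 and 23.7 scaled TPM in the lowest, median and highest control mouse, and the medians were 9.07, 10.2 and 10.1 from the lowest to the highest dose. Its log2FC was -0.31, -0.14 and -0.19 (adjusted p = 0.634, 0.752 and 0.769), with intervals that reached from -0.79 to 0.33 across the doses, so that changes of such a size remain possible. The spread was widest at 1.5 mg/kg bw/d, where 5 of 13 mice lay below every control mouse and 2 above every control mouse. At 15 mg/kg bw/d, the 6 mice that stand apart had a median of 17.2 and the other 7 a median of 8.16. Leaving out the mice that stand apart gave a log2FC of -0.36, -0.57 and -0.30 (adjusted p = 0.474, 0.212 and 0.52), that at 15 mg/kg bw/d with an unadjusted p of 0.0355. Ppard, at 0.895 to 2.65 scaled TPM in any mouse, had a log2FC of -0.19, -0.22 and -0.08 (adjusted p = 0.507, 0.214 and 0.818), at values that each mouse takes in steps of about 1 unit.

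The sterol and bile acid receptors were close to control. Nr1h3 (LXRα) had medians of 41.8, 43.6, 39.0 and 40.2 scaled TPM from control to 150 mg/kg bw/d and was not called (log2FC -0.00, -0.14 and -0.05, adjusted p = 0.995, 0.169 and 0.81). At 15 mg/kg bw/d, 2 of 13 mice were below every control mouse, and the mice that stand apart had a median of 34.0 against 41.7 in the other 7. Without them the log2FC at this dose was -0.00. Nr1h4 (FXR) had medians of 43.6, 46.9, 54.5 and 41.5, and its log2FC at 15 mg/kg bw/d of 0.23 missed the threshold (adjusted p = 0.0985, 11 of 13 mice above the control median) except when control replicate 11, its highest control mouse, was left out (0.27, adjusted p = 0.0422). Nr0b2 (SHP) ranged from 31.3 to 96.3 in control mice and from 23.5 to 102 in dosed mice, with log2FC of -0.15, -0.03 and 0.01 (adjusted p = 0.798, 0.942 and 0.984).

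Nr1i2 (PXR), the receptor through which many drugs induce their own breakdown, was not called against control but differed between 15 and 150 mg/kg bw/d. Its lowest, median and highest values were 11.4, 21.9 and 29.1 scaled TPM in control, 8.77, 20.4 and 30.9 at 15 and 18.5, 24.9 and 33.1 among mice on 150 mg/kg bw/d. For the lower of these doses against the higher, log2FC was -0.49 (SE 0.13; limma, adjusted p = 0.00581). This was 1 of 4 receptors called in that comparison, where 20.0% of all tested genes were called, and of the 4 only Rxra was also past a log2FC of 0.5, which held for 6.73% of all genes.

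The Nr1i2 difference lay in the mice that stand apart. At 15 mg/kg bw/d, the 6 such mice had 8.77 to 15.9 scaled TPM (median 11.8) and the other 7 had 20.4 to 30.9 (median 24.7), with no overlap. Control replicate 1, which also stands apart, had 11.4, the lowest control value, and replicate 10 at 150 mg/kg bw/d had 18.5, the lowest of its group. Without these mice, 15 and 150 mg/kg bw/d were not distinguishable in Nr1i2 (log2FC -0.07, adjusted p = 0.737), the direction at 15 mg/kg bw/d against control turned (0.17 in place of -0.22, neither called), and 1.5 was called lower than 150 mg/kg bw/d (-0.30, adjusted p = 0.0168).

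Nr1i3 (CAR), a receptor that phenobarbital activates, had a log2FC of 0.26, 0.34 and 0.37 against control from 1.5 to 150 mg/kg bw/d, and no dose was called (adjusted p = 0.64, 0.283 and 0.394), except 15 mg/kg bw/d when its replicate 7 was left out (0.50, adjusted p = 0.04996). Its values were 13.8, 52.4 and 66.5 scaled TPM in the lowest, median and highest control mouse, 32.3, 51.9 and 87.7 at 1.5, 14.2, 64.4 and 83.7 at 15 and 40.8, 56.6 and 81.7 among mice on 150 mg/kg bw/d. All groups overlapped, and the median at 1.5 mg/kg bw/d lay below that of control. There the log2FC was 0.14 without control replicate 8, 0.15 without control replicate 9 and 0.09 with Dbp as a covariate, which also gave -0.02 at 15 and 0.22 at 150 mg/kg bw/d. Of the 54 mice, 3 had far lower values than the rest: 13.8 and 15.9 in control replicates 8 and 9 and 14.2 in replicate 7 at 15 mg/kg bw/d. Control replicate 8 was also the lowest control mouse in Rxra, Nr1h3 and Nr1h4. These 3 mice had the highest macrophage marker sums of all (560, 572 and 438 scaled TPM, in the same order, against a control median of 239). Their sums of cholangiocyte markers were 155, 54.8 and 257 against a control median of 23.2, and their hepatocyte marker sums were 23936, 35164 and 29964 against 38568. The part of the cell composition in these low values was not tested.

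Ahr was lowest at 150 mg/kg bw/d, where its value was 0.988, 2.00 and 3.14 scaled TPM in the lowest, median and highest mouse, against 1.87, 2.81 and 3.74 in control. The groups overlapped, with 5 of 14 dosed mice below every control mouse and 1 above the control median. The log2FC of -0.40 (SE 0.13) missed the threshold (adjusted p = 0.0851), and it passed with array quality weights (adjusted p = 0.043), with only these 2 groups in the fit (0.0496), with the scaling between mice undone (0.0278) and without replicate 3 at 150 mg/kg bw/d (-0.44, adjusted p = 0.0432). It missed it in the other settings, among them the rank-sum test (adjusted p = 0.262), Dbp as a covariate (0.114), the replicate block (0.109) and the fit without the mice that stand apart (0.063). The mice on 15 mg/kg bw/d exceeded those on 150 by a log2FC of 0.47 (SE 0.13, adjusted p = 0.00705), and without the mice that stand apart it was 0.26 (adjusted p = 0.327). At such values a change is of 1 or 2 rounded units per mouse.

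**Figure D3:**
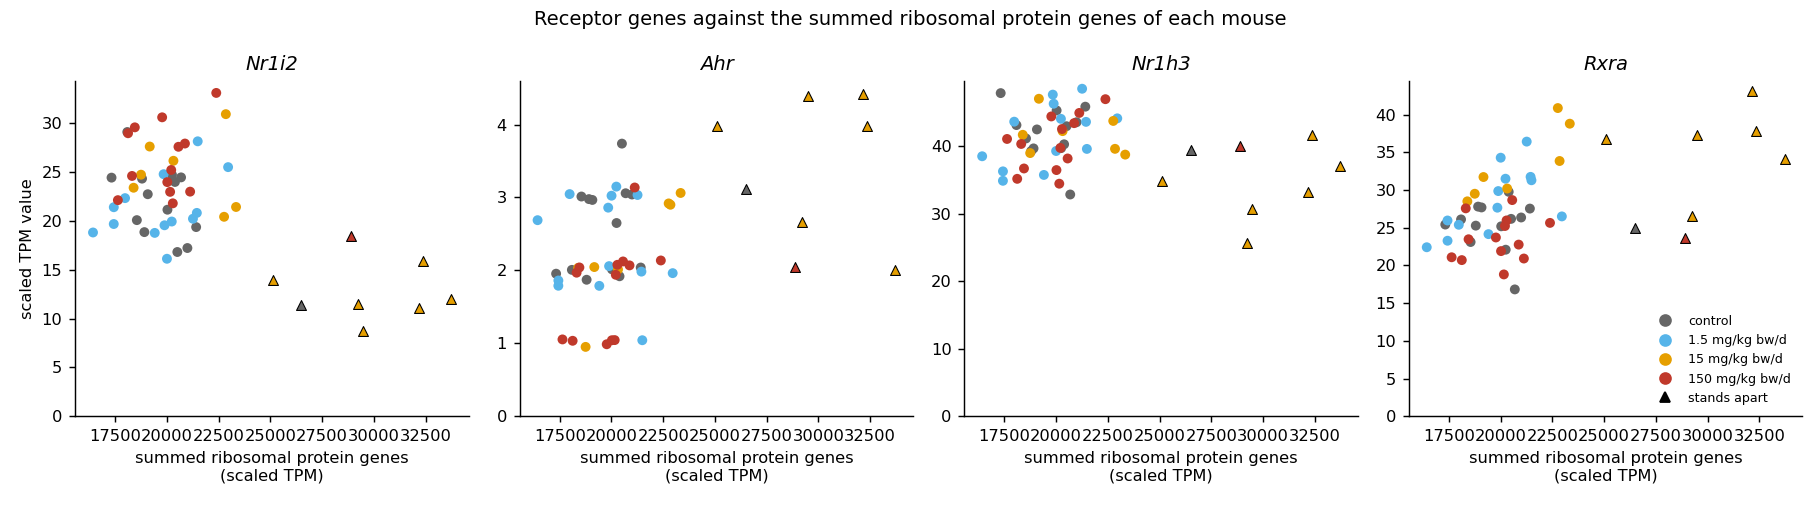
Scaled TPM of Nr1i2, Ahr, Nr1h3 and Rxra (y axes, linear, from 0) against the summed value of 292 ribosomal protein genes and pseudogenes (x axis, scaled TPM) in each of the 54 mice, coloured by dose. Triangles are the 8 mice that stand apart: their Nr1i2 lies between 8.77 and 18.5, while their Rxra lies between 23.6 and 43.1.

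At 1.5 mg/kg bw/d, 0 of the 10 receptors were called in limma, where 1.20% of all tested genes were. At an unadjusted p under 0.05, Rxra alone passed (log2FC 0.16, SE 0.08, adjusted p = 0.372), while 12.3% of all tested genes did, and the rank-sum test with the same adjustment called 0 as well. In the direct comparison of 1.5 with 15 mg/kg bw/d, 1 of 10 receptors was called (Rxra) against 21.4% of all tested genes, and in that of 1.5 with 150 mg/kg bw/d 2 of 10 (Ppara and Rxra) against 4.61%.

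The known targets of the receptors were described beside them. Their lists were chosen with earlier results of these data known, so that the counts describe the lists and are no independent test. Among 34 tested PPARα targets, which include genes of fatty acid oxidation and of the Cyp4a family, 18 rose and 0 fell at 150 mg/kg bw/d, where 1.49% of all tested genes were called higher and 0.682% lower. Their median log2FC was 0.39 beside -0.01 over all tested genes. The microsomal fatty acid hydroxylases Cyp4a14 (log2FC 1.84, SE 0.30, adjusted p = 7.28e-05), Cyp4a10 (1.76, SE 0.25) and Cyp4a31 (1.73, SE 0.20) and the peroxisomal enzyme Ehhadh (1.54, SE 0.12) led the list. Ehhadh was 33.0, 48.9 and 73.1 scaled TPM in the lowest, median and highest mouse at 150 mg/kg bw/d and 10.6, 14.2 and 30.0 in control, with no overlap. Without the mice that stand apart, 23 rose and 0 fell, where 414 of 11431 tested genes were called in either direction.

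At the lower doses the PPARα list held fewer calls. At 1.5 mg/kg bw/d, 0 of 34 were called, with a median of -0.06. Of the 34, 4 rose and 2 fell at 15 mg/kg bw/d, where 7.57% of all genes were called higher and 6.61% lower. Those with the largest changes were the fatty acid binding protein Fabp1 (log2FC 0.87, adjusted p = 0.00191), the lipase inhibitor Angptl4 (0.55, adjusted p = 0.0166), the lipid droplet protein Plin5 (-0.43, adjusted p = 0.00964) and the oxidation enzyme Acadm (-0.40, adjusted p = 0.0343). Without the mice that stand apart only 1 of the 34 was called at 15 mg/kg bw/d, Acadl, which was higher. In that fit 607 of 11431 tested genes were called at this dose.

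Of 13 tested PPARγ targets of fatty liver, 3 rose at 150 mg/kg bw/d, where 1.49% of all tested genes did: the serine protease Cfd (adipsin; log2FC 2.07, adjusted p = 0.00335), the lipase inhibitor G0s2 (1.08, adjusted p = 0.0299) and the lipid droplet gene Fitm2 (0.41, adjusted p = 0.0335). Cfd is also an adipocyte marker. Of the other adipocyte markers, Adipoq, Lep, Retn and Plin1 had a median of 0 over the mice. Fabp4 (log2FC -0.68), Car3 (0.14) and Pnpla2 (0.30) were tested and not called at this dose. The part of adipocyte RNA in the Cfd value was not tested. The defining targets Cidec (0.16, adjusted p = 0.946) and Cd36 (0.33, adjusted p = 0.655) were not called. The list's median was 0.33 there. None of the 13 was called at the lower doses, with medians of -0.25 and -0.07. Without the mice that stand apart the median at 15 mg/kg bw/d was -0.47, with 3 of 13 genes above 0.

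LXR targets, 17 tested, gave 0 calls at 1.5, 3 at 15 and 1 at 150 mg/kg bw/d, where 1.20%, 14.2% and 2.17% of all tested genes were called. The 3 of 17 lay near that background. At 15 mg/kg bw/d, Apoe fell (log2FC -0.47, adjusted p = 1.36e-05), and the sterol transporter gene Abcg5 (0.39, adjusted p = 0.0112) and the apolipoprotein Apoc1 (0.37, adjusted p = 0.00607) rose. At 150 mg/kg bw/d, Lpcat3, an enzyme that remodels phospholipids, rose (0.45, adjusted p = 0.00458). Without the mice that stand apart, Apoe and Lpcat3 were still called and Abcg5 and Apoc1 were not. Srebf1, through which LXR drives lipogenesis, was not called (-0.23, 0.25 and -0.21 from 1.5 to 150 mg/kg bw/d).

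FXR and SHP targets, 17 tested, gave 1 call at 1.5 mg/kg bw/d, the proteoglycan Sdc1 (log2FC -0.48, adjusted p = 0.0183), and 1 at 150 mg/kg bw/d, Apoc3 (-0.30, adjusted p = 0.0179), against 1.20% and 2.17% of all tested genes. Of the 17, 4 were called at 15 mg/kg bw/d against 14.2% of all tested genes. On 15 mg/kg bw/d, Ces1d (0.63), the bile acid conjugating enzyme Slc27a5 (0.41) and Apoa5 (0.32) rose and the phospholipid transporter Abcb4 fell (-0.43; adjusted p = 0.0118, 0.0203, 0.021 and 0.0415). Without the mice that stand apart, none of these 4 was called and Baat, another conjugating enzyme, was. In that fit 607 of 11431 tested genes were called at this dose. With Dbp as a covariate none of the 17 was called at this dose, where 968 of 11431 were. Cyp7a1, the rate-limiting enzyme of bile acid synthesis that SHP represses, had a log2FC of 0.38, 0.05 and -0.95 (adjusted p = 0.818, 0.964 and 0.344). It ranged from 1.02 to 82.0 scaled TPM between mice.

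PXR and CAR targets gave 1, 1 and 0 calls of 34 tested from 1.5 to 150 mg/kg bw/d, where 1.20%, 14.2% and 2.17% of all tested genes were called. Of the 34, Ugt1a1, which conjugates bilirubin, rose at 1.5 mg/kg bw/d (by 0.68 on the log2 scale, adjusted p = 0.046), where 0.674% of all genes were called higher and 0.525% lower. Cyp2a5 rose at 15 mg/kg bw/d (0.75, adjusted p = 0.007), neither call held with Dbp as a covariate, and none was called at 150 mg/kg bw/d, where Ugt1a1 was called without the mice that stand apart. The classical PXR target Cyp3a11 had a log2FC of -0.31, 0.17 and 0.11 (adjusted p = 0.546, 0.623 and 0.858), and the CAR target Cyp2b10 was at 0 to 2.19 scaled TPM, too low to be tested.

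Of 10 tested AHR targets, 2 rose at 15 mg/kg bw/d, where 7.57% of all tested genes did. They were Gsta4 (log2FC 0.86, adjusted p = 0.000382) and Bnip3 (0.31, adjusted p = 0.0292). The other doses gave no call in this list. Without the mice that stand apart no dose did, where 289, 607 and 414 of 11431 tested genes were called from 1.5 to 150 mg/kg bw/d. Cyp1a2, a constitutive liver target, had a log2FC of 0.63, 0.25 and 0.34 (adjusted p = 0.26, 0.57 and 0.576), and Tiparp 0.06, -0.06 and 0.09. Among 8 tested AHR partners and chaperones, Epas1 (0.25, adjusted p = 0.00982) and Ptges3 (0.15, adjusted p = 0.0449) rose at 15 mg/kg bw/d, 2 of 8 beside the same background. Ptges3 was still called without those mice, and neither was with Dbp as a covariate.

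**Figure D4:**
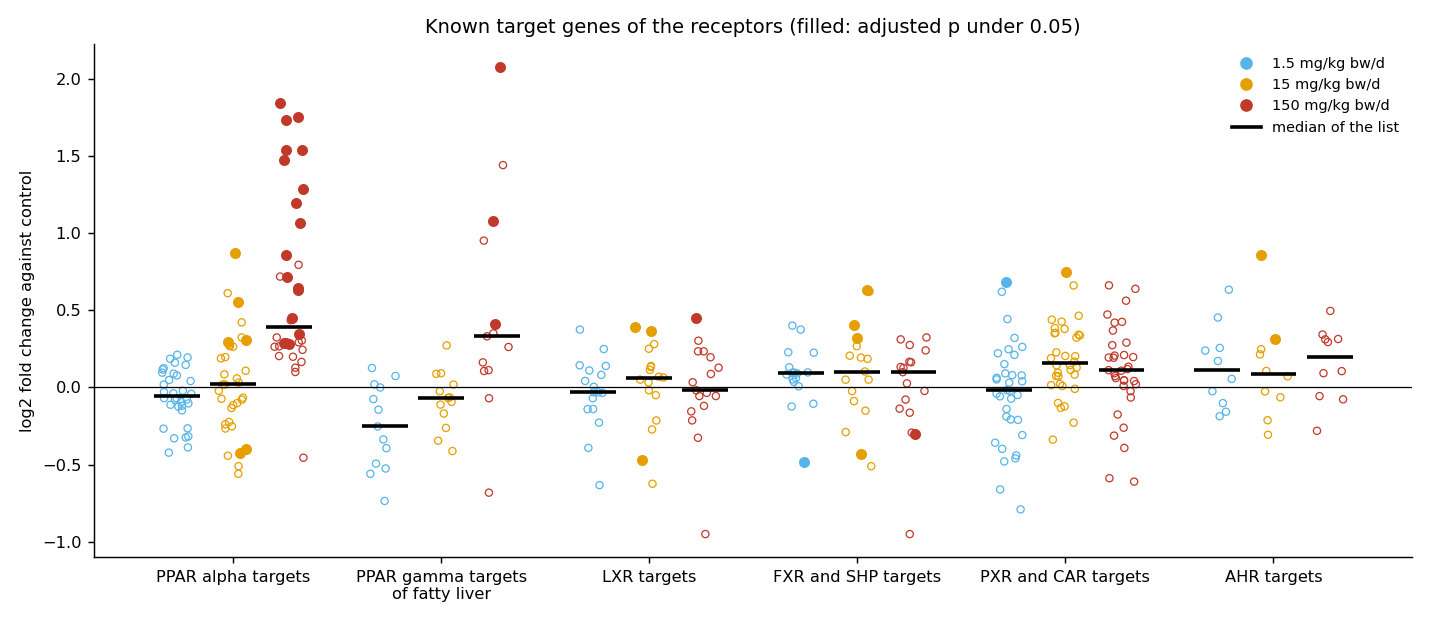
log2 fold change against control (y axis) of each tested target gene of the receptors at each dose (mg/kg bw/d, by colour), with the median of each list as a bar. Filled points have an adjusted p under 0.05; the PPARα list at 150 mg/kg bw/d holds 18 of 34 such genes and a median of 0.39.

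Other nuclear receptors of liver and the coregulators gave calls against control only at 15 mg/kg bw/d in the limma fit of all mice, 3 of 27 and 2 of 20, both lower shares than the 14.2% of all tested genes. Of 27 tested receptors, the clock receptor Nr1d2 rose (log2FC 0.42, adjusted p = 0.00158) and the thyroid hormone receptor Thra (-0.57, adjusted p = 5.88e-05) and Rxrb (-0.42, adjusted p = 0.00196), a second RXR, fell. Rxrb was 9.37 ± 1.29 scaled TPM in control (SD, n = 14) and 6.90 ± 1.92 at 15 mg/kg bw/d (n = 13), where Rxra was higher. Without the mice that stand apart, Rxrb was not called and Nr1h2 (LXRβ) was called higher at 1.5 mg/kg bw/d. With Dbp as a covariate, Nr1d2 was not called. Of 20 coregulators, Prmt1 (-0.59, adjusted p = 0.0403) and Tbl1xr1 (-0.33, adjusted p = 0.00453) fell, neither was called without those mice, and only Tbl1xr1 was with Dbp as a covariate.

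Mouse by mouse, some of the compared pairs of a receptor and a target went together and others did not. Deviations from the group means on the log2 scale were compared in 82 pairs: 18 of a receptor and a known target, 44 of 2 receptors and 20, added after the data were seen, with Dbp or the macrophage marker sum. The permutation p-values (100000 resamples within groups) were adjusted over the 82 pairs, and 0.000102 is the smallest adjusted Pearson p here, reached by 1e-05, the smallest that the resamples can give. A pair was called where both the Pearson and the Spearman p were under 0.05, which held for 5 of the 18, 7 of the 44 and 8 of the 20. The share of other gene pairs that would be called in this way was not computed, so that these counts have no background beside them.

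Pparg went with both storage genes. Its r was 0.82 with Cidec, a lipid droplet protein (rho 0.81, adjusted permutation p = 0.000102 and 0.000205, r from 0.37 to 0.94 within groups, 0.84 without the 2 mice farthest from the median Pparg) and 0.84 with the fatty acid transporter Cd36 (rho 0.82, the same adjusted p-values, 0.53 to 0.90 within groups, 0.82 without those 2 mice). Nr1i3 went with Cyp2c29, a hydroxylase of foreign compounds (r 0.84, rho 0.59, adjusted p = 0.000102 and 0.000469, 0.66 to 0.93 within groups and 0.72 without the 2 farthest mice). Its pair with Cyp2b10, whose values were very low, was not called and had the opposite sign. There r was -0.31 (rho -0.23, adjusted permutation p = 0.0558 and 0.192, -0.58 to -0.07 within groups). Rxra and the cholesterol exporter Abca1 had an r of 0.39 (rho 0.39, adjusted p = 0.0156 and 0.0249), which fell to 0.29 without the 2 farthest mice and was 0.11 to 0.79 within groups.

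For Ppara, the 2 targets set against it, Cyp4a10 and Ehhadh, gave no called pair. The r was 0.21 with Cyp4a10 (rho 0.18, adjusted p = 0.231 and 0.35) and -0.10 with Ehhadh (rho -0.02, adjusted p = 0.645 and 0.942). Within groups, r with Cyp4a10 ranged from -0.08 to 0.74, the highest at 15 mg/kg bw/d. The other PPARα targets were not compared in this way. Nr1h4 showed no relation with Nr0b2 (r -0.00, rho -0.03, adjusted p = 0.996 and 0.933), nor Nr0b2 with the bile acid synthesis genes Cyp7a1 (r 0.02) and Cyp8b1 (r 0.12), and Ahr had an r of 0.08 with Cyp1a2 and -0.22 with Tiparp. For Nr1i2 and Cyp3a11, the called r of -0.48 (rho -0.40, adjusted permutation p = 0.0115 and 0.0347) rested on the mice that stand apart: without them it was 0.16.

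**Figure D5:**
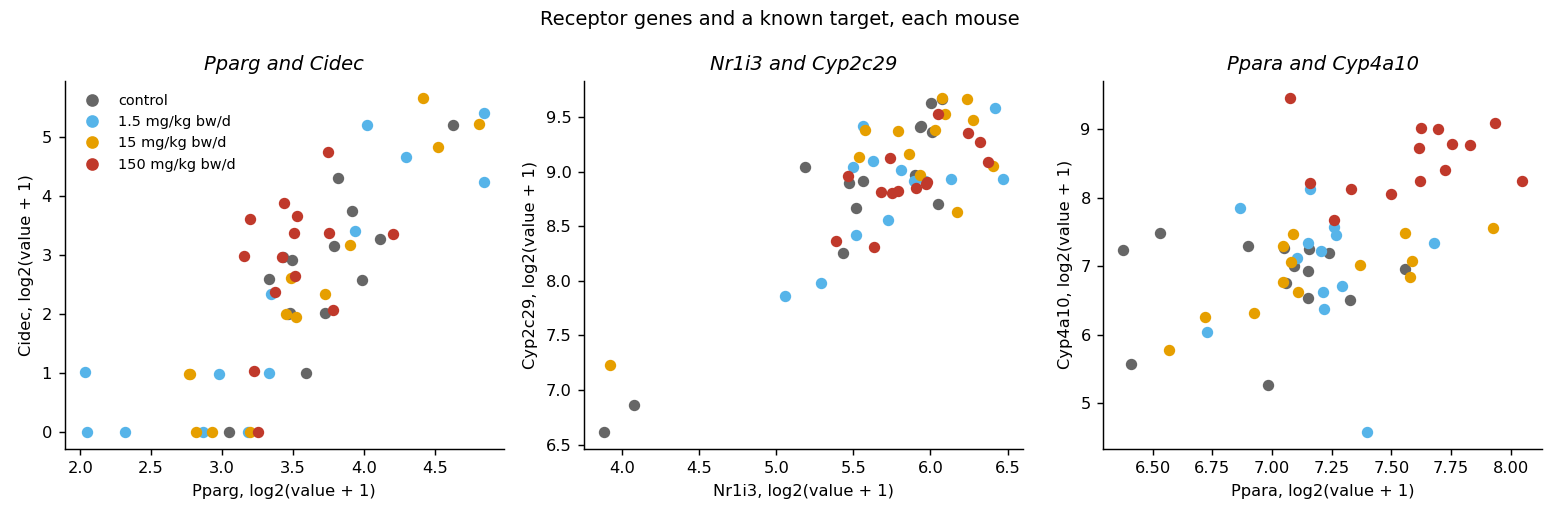
Log2(value + 1) of a known target (y axis) against that of its receptor (x axis) in each of the 54 mice, coloured by dose, for Pparg with Cidec, Nr1i3 with Cyp2c29 and Ppara with Cyp4a10. The first pairs rise together (r of deviations from group means 0.82 and 0.84), with 3 mice at low Nr1i3, and the 150 mg/kg bw/d mice lie above the others in Cyp4a10.

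Among the receptors themselves, Nr1i3, Nr1h4 and Rxra went together. The r was 0.68 for Nr1h4 and Nr1i3 (rho 0.66, 0.62 to 0.76 within groups, 0.61 without the 2 farthest mice), 0.65 for Rxra and Nr1i3 (rho 0.57, 0.44 to 0.84, 0.57) and 0.55 for Rxra and Nr1h4 (rho 0.46, 0.08 to 0.78, 0.46). Pparg and Nr1h3 moved against each other (r -0.54, rho -0.54, -0.67 to -0.45 within groups, -0.59 without the 2 farthest mice), as did Nr1i2 and Ahr (-0.45, rho -0.44, -0.58 to -0.07 within groups, -0.34 without the 2 farthest mice and -0.29 without the mice that stand apart) and Ppard and Nr1i3 (-0.40, rho -0.34, -0.52 to -0.20 within groups, -0.29 without the 2 farthest mice). The adjusted permutation p of these pairs was at most 0.0111 for r and 0.0491 for rho. Ppard and Ahr take only a few rounded levels, which limits the pairs that hold them. Nr1h3 and Nr1i2 had an r of 0.46 (rho 0.40, adjusted permutation p = 0.0115 and 0.0253), which was 0.08 without the mice that stand apart.

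Besides Ppara, the level of Dbp also went with Rxra (r 0.41, rho 0.44, 0.32 without the 2 farthest mice), Nr1h4 (r 0.52, rho 0.55, 0.46), Nr1i3 (0.50, rho 0.49, 0.50) and, in the opposite sense, Ppard (-0.47, rho -0.49, -0.39). Ppard takes only a few rounded levels, so that its r does not show a graded relation. The macrophage marker sum went against Nr1i3 (-0.71, rho -0.48, -0.56) and Nr1h4 (-0.50, rho -0.41, -0.42) as it did against Rxra. The adjusted permutation p of these 6 pairs was at most 0.00941 for r and 0.0117 for rho.

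By likeness over the 54 mice (Pearson r of deviations from group means, a description with no test), Ppara was closest to Pank3 (0.82), Abcd3 (0.79) and Pank1 (0.74), the kinases being enzymes of coenzyme A synthesis and Abcd3 a peroxisomal transporter of fatty acids. Pparg was closest to Lgals1 (0.85), Cd36 (0.84) and Cidec (0.82). Rxra was closest to Keg1 (0.83), the esterase Ces1c (0.79) and the glycerol channel Aqp9 (0.78). Nr1i3 was closest to the cytochromes Cyp2e1 (0.88) and Cyp2c50 (0.87) and to Sord (0.85), and Nr1h4 to Cyp2e1 (0.73), Chp1 (0.70) and Nr1i3 (0.68).

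Nr1i2 was closest to Aldh2 (0.87), Rab5c (0.85) and the pseudogene Nsa2-ps1 (0.85), and Nr1h3 to Ndrg2 (0.77), Hyal1 (0.76) and Lrrc3 (0.75). The likeness was not computed without the mice that stand apart, in which Nr1i2 was low. The likeness was weaker for Ahr, led by Lysmd3 (0.64), Ube2j2 (0.62) and Fbxo45 (0.61), for Nr0b2, led by Dzip3 (0.54), Polm (0.51) and Gm29966 (0.50), and for the rounded Ppard, with Plekha2 (0.51) and Fnbp1l (0.50).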

How the data were processed

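QuantSeq 3′ mRNA-Seq libraries of 54 livers were processed by the authors on GRCm38 in the nf-core/rnaseq workflow, for which STAR, Salmon and RSEM are named. The deposited signal is TPM by the table's name: within a mouse every value is a whole multiple of 1 step (0.764 to 1.11), and the whole numbers sum to 948342 to 980641, so that they are not reads, no count test was run and the depth is unknown. The scaling is not stated. Genes with a mean of at least 1 were tested with limma 3.58.1 (R 4.3.3, lmFit, eBayes with trend) on log2(value + 1), 4 groups in 1 fit, with Benjamini-Hochberg adjustment; fold changes of low genes are understated. Mice were grouped by label. The labels do not state litters, and the study describes single-housed mice, 1 library each. Correlations used Python with scipy. The genes named are the 10 receptors, defining targets, up to 4 called genes per list and dose, and the 3 most similar genes per receptor, of which 1 is not reported here. Receptors and lists were chosen with earlier results of these data known. The alternatives were other pseudocounts (0.1, 5) and filters (none, or a mean of 5), quantile normalization, undone scaling, 2 groups only, weights, robust eBayes, a replicate block, a rank-sum test, a log2FC beyond 0.5 and each mouse left out; the exclusion of 8 mice and a Dbp covariate were chosen after seeing the data. The fit was tested on simulated data.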

Additional observations from a re-analysis of the deposited data

Results flagged for a closer look

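For 4 receptor genes the effects of 2 doses differed by a direct test of the difference (limma, adjusted p under 0.05). Of all tested genes, 20.0% were called at 15 against 150, 21.4% at 1.5 against 15 and 4.61% at 1.5 against 150 mg/kg bw/d. Ppara at 15 mg/kg bw/d was below its level at 150 (log2FC -0.38), and so was Ppara at 1.5 mg/kg bw/d (-0.39). Rxra at 15 mg/kg bw/d was above its level at 150 (0.53), Rxra at 1.5 was below that at 15 (-0.27) and above that at 150 (0.26). At 15 against 150 mg/kg bw/d, Nr1i2 was lower (-0.49) and Ahr higher (0.47). Without the 8 mice that stand apart, Rxra was still called at 15 and at 1.5 against 150 mg/kg bw/d, and the other 5 differences were not. In that fit, of 11431 tested genes, 953 were called at 15 against 150, 578 at 1.5 against 15 and 787 at 1.5 against 150 mg/kg bw/d.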

How the results depend on the processing

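Under every alternative, and without each single mouse, Ppara was called at 150 mg/kg bw/d, and so was Rxra at 15 mg/kg bw/d except where a log2FC beyond 0.5 was required. Counts of receptors called moved elsewhere. Against control at 15 mg/kg bw/d, 1 became 2 with the scaling between mice undone (Nr1h3) and 0 with the log2FC limit, with 1 to 2 when single mice were left out. At 150 mg/kg bw/d, 1 became 2 (Ahr) with the scaling undone, with weights and with only 2 groups, and was 1 to 2 without single mice. Of the 4 called between 15 and 150 mg/kg bw/d, 1 (Rxra) was left without the 8 mice, in the rank-sum test and under the log2FC limit. Between 1.5 and 15 mg/kg bw/d, 1 became 2 with the scaling undone and 0 in those same 3 settings. At 1.5 against 150 mg/kg bw/d, 2 became 1 under quantile normalization and with the scaling undone, 0 with no filter, in the rank-sum test and under the log2FC limit, and 0 to 2 without single mice. The rank-sum test called 1246 of 11431 tested genes at 15 against 150, 1143 at 1.5 against 15 and 435 at 1.5 against 150 mg/kg bw/d. For the other settings of this paragraph no share of all tested genes is given here, so that these counts describe the receptors alone. Of the 12 called pairs of the 62 fixed ones, 7 had an r of 0.3 or more in size within 150 mg/kg bw/d. The cause of these changes was not tested. DESeq2, planned for counts, was not run, since the values are not counts.

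Replicate numbers did not pair the mice: deviations of same-numbered mice had a mean r of -0.0025 over 79 pairs. With the replicate block, 1 receptor (Ppara) was called at 1.5 against 150 mg/kg bw/d, and Nr1h3 at 1.5 mg/kg bw/d turned to 0.00527. The block changed no other receptor call.

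Directions that turned were all of uncalled values. Nr1i2 at 1.5 mg/kg bw/d was -0.00437 (quantile), -0.00722 (scaling undone), -0.0032 (weights) and -0.0524 without the 8 mice. At 15 mg/kg bw/d, Nr0b2 was 0.0167 with weights, 0.0332 without the 8 mice and 0.17 with Dbp, Ppara -0.0347 and Nr1i3 -0.0178 with Dbp, Nr1i2 0.17 and Ahr -0.14 without the 8 mice. Nr0b2 at 150 mg/kg bw/d was -0.0111 (quantile) and -0.0812 (scaling undone). Without single mice, the ranges that crossed 0 were -0.0272 to 0.0184 for Nr1h3 and -0.0524 to 0.0458 for Nr1i2 at 1.5, -0.0943 to 0.0722 for Nr0b2 at 15, and -0.0493 to 0.0352 for Nr1h4 and -0.0530 to 0.0694 for Nr0b2 at 150 mg/kg bw/d. Read depth is unknown, and values of 1 to 4 rounded units limit Ahr and Ppard.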
